A study of Homo sapiens with 3 samples.

Results

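Telomerase and shelterin genes were examined in RNA-seq of 3 libraries labelled wild-type HepG2, a human liver cancer line in wide use. The 10 genes were *TERT*, *TERC*, *DKC1*, *NOP10*, *NHP2*, *GAR1*, *TERF1*, *TERF2*, *POT1* and *ACD*. They were found by gene name on the main chromosomes of the deposited tables, and each matched 1 of the 43389 gene rows shared by the 3 tables. The labels give the libraries as untreated replicates 1 to 3 of polyA RNA, with no second condition, and do not say whether they came from separate cultures. The spread between them may therefore be technical.

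Telomerase is the enzyme that adds telomeric repeats to chromosome ends. *TERT* encodes its reverse transcriptase, and *TERC* is the RNA that carries the template. *TERC* ends in an H/ACA domain, the fold of the small nucleolar RNAs that guide pseudouridylation, and is bound like them by the proteins of *DKC1*, *NOP10*, *NHP2* and *GAR1*. Shelterin is the protein complex that coats telomeric DNA and keeps it from being treated as a break. In it, the products of *TERF1* and *TERF2* bind double-stranded repeats, that of *POT1* binds the single-stranded overhang, and that of *ACD* (the protein TPP1) joins POT1 to the rest and recruits telomerase. Most normal body cells silence *TERT*, whereas most liver cancers express it.

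The RNA at the centre of the enzyme is shown first, because its sequence gives both the template and the fold that links it to the other members. The deposited row of *TERC* covers a single exon of 451 bases on the minus strand of chromosome 3 in GRCh38. GENCODE v44 gives the transcript a 3′ end 90 bases farther on, at a total of 541 bases. The first stretch, bases 16 to 115 of the row (chr3:169764946-169765045), holds the template in capitals, at bases 46 to 56. The second, bases 352 to 451 (chr3:169764610-169764709), holds in capitals the H box at bases 372 to 377, the CAB box that directs the RNA to Cajal bodies at bases 411 to 414, and the ACA box at bases 446 to 448.
TERC template region: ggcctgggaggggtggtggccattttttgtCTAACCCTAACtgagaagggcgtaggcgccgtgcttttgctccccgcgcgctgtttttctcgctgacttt
TERC 3′ end: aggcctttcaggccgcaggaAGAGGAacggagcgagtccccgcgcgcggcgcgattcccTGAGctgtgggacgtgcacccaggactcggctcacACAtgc

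The reverse complement of the template, GTTAGGGTTAG, contains the telomeric repeat TTAGGG. The ACA box lay 3 bases before the end of the row. The gene of the H/ACA pseudouridine synthase, *DKC1*, itself carries small RNAs of this family in its introns. SNORA56 (chrX:154774998-154775126) and SNORA36A (chrX:154768528-154768659), both on the plus strand, shared no base with the exons of the canonical *DKC1* transcript of GENCODE v44. Their last ACA is in capitals, 0 bases from the annotated end in SNORA56 and 3 bases from it in SNORA36A.
SNORA56: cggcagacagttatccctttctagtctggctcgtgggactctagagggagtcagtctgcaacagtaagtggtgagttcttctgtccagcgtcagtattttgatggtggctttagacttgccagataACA
SNORA36A: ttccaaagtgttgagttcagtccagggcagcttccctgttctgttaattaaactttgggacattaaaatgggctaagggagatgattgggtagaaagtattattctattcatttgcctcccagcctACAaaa

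Levels are given as TPM, a measure per length of transcript with an equal total in every library. The tables hold no counts. The highest ratio of coverage (the mean read depth over a gene) to FPKM rises with depth, and was 13.3, 12.8 and 11.5 in replicates 1, 2 and 3. Each of 18 housekeeping genes reached 10 TPM throughout. In contrast, 18 of 20 genes for secreted hepatocyte proteins stayed under 1 TPM in each library, with *ALB*, *APOA1* and *APOB* listed at 0. *AFP* did not exceed 0.0248 TPM in any library. *RBP4* and *VTN* were the 2 of the 20 that exceeded it. Defining hepatocyte markers were thus missing, and the values below hold for the libraries labelled HepG2. Of 8 mesenchymal genes 5 reached 1 TPM throughout. *VIM* was high, with 694 ± 48.1 TPM (SD, n = 3). By their means *CDH2* had 27.1, *ZEB1* 11.6, *COL1A1* 6.93 and *TWIST1* 5.72 TPM, while *COL1A2*, *FN1* and *SPARC* did not reach 1 TPM throughout. Of 7 blood cell genes 1 did, *CD68* with 9.41 ± 0.965 TPM (SD, n = 3).

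The members differed in RNA level by group. The H/ACA protein genes stood highest, with a summed level 10.8 times that of the 4 shelterin members. That sum leaves out *TINF2* and *TERF2IP*. All 6 shelterin genes summed to 130 TPM by their mean, against 733 TPM for the H/ACA genes. *TERT* was below all of these. *TERC* was listed lowest, but its value is not comparable with that of an mRNA, as described below. Fewer cells that express a gene and less RNA per cell cannot be told apart in such bulk libraries. At least 1 TPM in every library was reached by 9 of the 10 genes, against 30.7% of all rows, and at least 10 TPM by 7, against 18.8% of all rows. *TERC* was the exception at the lower limit.

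**Figure D1:**
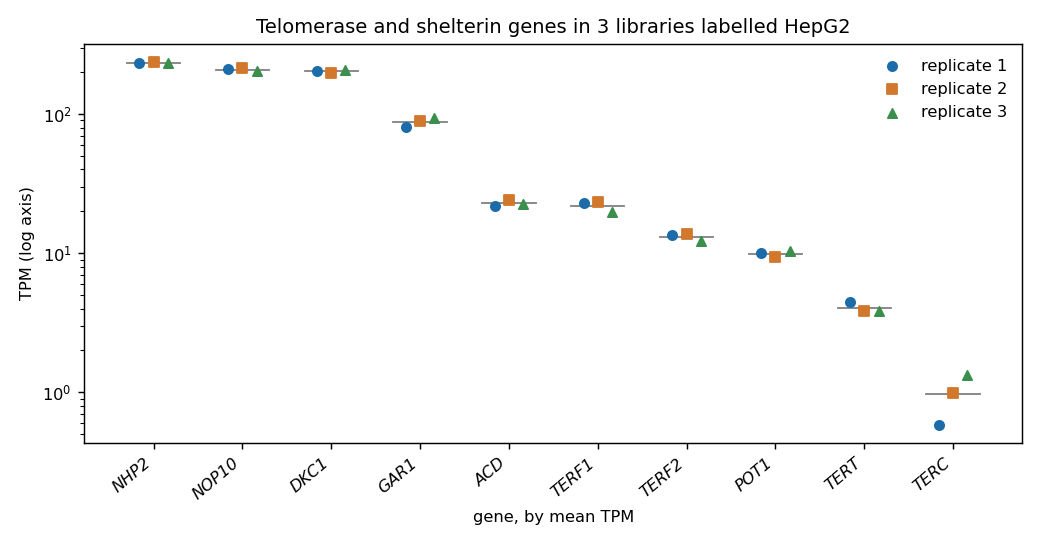
TPM of the 10 genes in each of 3 libraries labelled HepG2 (log axis), ordered by mean TPM, with the mean as a grey line. The 3 points of each gene lie close together except for TERC, which had 0.584 TPM in replicate 1 and 1.32 TPM in replicate 3.

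*TERT*, the catalytic subunit, had 4.47, 3.82 and 3.83 TPM in replicates 1, 2 and 3, or 4.04 ± 0.373 TPM (SD, n = 3). It was detected in every library, and replicate 1 was the highest of the 3. By mean TPM it exceeded 20.7% of the 13785 rows with a mean of at least 1 TPM. Its deposited row occupies chromosome 5 (minus strand), from 1253167 to 1295047, and its canonical GENCODE v44 transcript has 16 exons. The coverage was 27.7, 23.2 and 20.8, so its exons were read to a depth of over 20 in each library, although its rank was low.

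*TERC*, the template RNA, had 0.584, 0.990 and 1.32 TPM in replicates 1, 2 and 3, or 0.966 ± 0.371 TPM (SD, n = 3). Replicate 3 was 2.27 times replicate 1, the widest ratio of the 10 genes. The coefficient of variation was 38.4%, against 9.24% or less in each other member. Among the 1661 rows within 1.5-fold of its mean level, the median coefficient of variation was 17.6%, and that of *TERC* exceeded 85.5% of them. The depth behind these values was low. Coverage multiplied by the length of the row gave 1650, 2742 and 3284 aligned bases, each within 0.001 of a whole number, which equal 11.0, 18.3 and 21.9 reads of 150 bases. Mates of a pair are not independent, so fewer fragments than this stand behind each value. *TERC* has no poly(A) tail in its mature form, and the labels name polyA RNA, so its value is not comparable with that of an mRNA at the same number of molecules.

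Other RNAs without a poly(A) tail differed between the libraries in the same order. Of 5 such RNAs listed, 4 had values above 0 in every library, and all 4 were lowest in replicate 1 and highest in replicate 3, as *TERC* was. RN7SK, which restrains the elongation factor P-TEFb, had 2.68, 3.70 and 4.94 TPM. RMRP, the RNA of RNase MRP, had 0.801, 2.10 and 3.12 TPM. The signal recognition particle RNA RN7SL1 had 506, 903 and 1398 TPM, and its near-identical copy RN7SL2, with which it can share reads, had 1068, 1979 and 2750.1 TPM. The ratio of replicate 3 to replicate 1 lay between 1.84 for RN7SK and 3.89 for RMRP. RPPH1, the RNA of RNase P, was listed at 0, 0.0713 and 0 TPM.

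Among 15134 rows above 0 in every library that averaged 0.5 TPM or more, 10.4% had this order and 2.17% reached 1.5 times as much TPM in replicate 3 as in replicate 1. In the 2784 of these rows with a mean of up to 2 TPM, the range in which *TERC* lies, 8.41% reached it. Of the 9 protein-coding members, only *GAR1* was also lowest in replicate 1 and highest in replicate 3, at a ratio of 1.15. A difference between the libraries in the carry-over of RNA without a poly(A) tail was not tested.

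**Figure D2:**
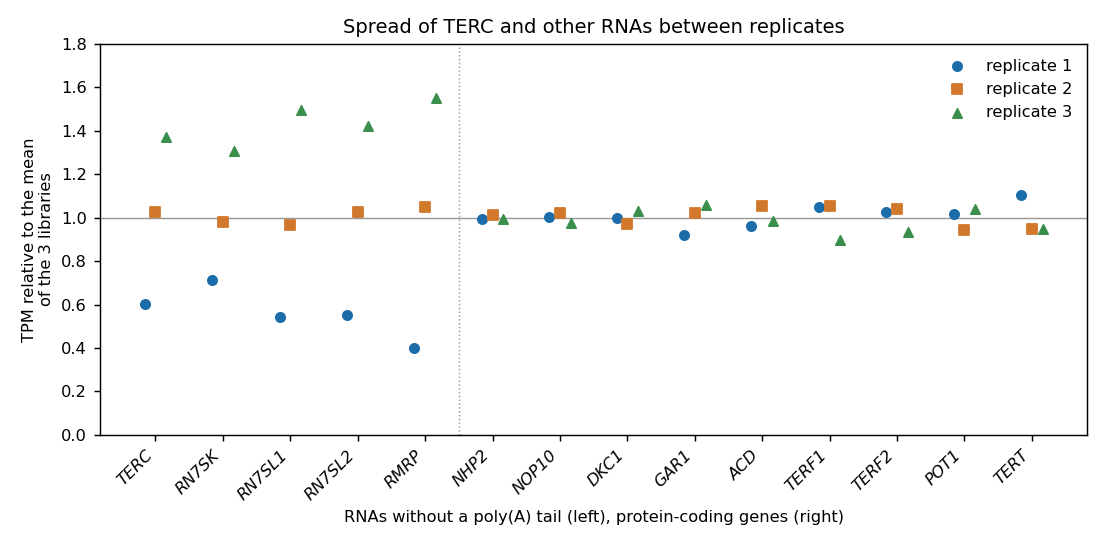
TPM in each library divided by the mean of the 3 libraries, for TERC and 4 other RNAs without a poly(A) tail (left of the dotted line) and for the 9 protein-coding members (right). The 5 RNAs on the left are all lowest in replicate 1 and highest in replicate 3, with ratios of 1.84 to 3.89 between these libraries, while the protein-coding genes stay within 1.17-fold from lowest to highest.

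The RNA of the 4 H/ACA protein genes was abundant, with coefficients of variation between libraries from 1.11% in *NHP2* to 7.14% in *GAR1*. *NHP2*, which encodes an RNA-binding protein of this core, had 232, 236 and 232 TPM in replicates 1, 2 and 3, or 233 ± 2.58 TPM (SD, n = 3). Its coefficient of variation of 1.11% was the lowest of the 10 genes. *NOP10*, which encodes a small protein that braces the pseudouridine synthase, had 209, 213 and 204 TPM, or 209 ± 4.66 TPM (SD, n = 3). *DKC1*, which encodes the pseudouridine synthase dyskerin, had 203, 197 and 209 TPM, or 203 ± 5.93 TPM (SD, n = 3). These genes exceeded 95.9%, 95.3% and 95.1% of the rows with a mean of at least 1 TPM.

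*GAR1*, whose product joins the mature particle late, had 80.9, 89.6 and 93.1 TPM in replicates 1, 2 and 3, or 87.9 ± 6.28 TPM (SD, n = 3). It was the lowest of the 4 in every library. *DKC1* was 2.32 ± 0.168 times as high as *GAR1* (SD, n = 3). The summed level of the 4 genes was 725, 736 and 737 TPM in replicates 1, 2 and 3.

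The core of the other class of small nucleolar particle, box C/D, which guides 2′-O-methylation, gave a reference for this sum. *FBL*, the methyltransferase, had 335 ± 20.3 TPM, *NOP56* had 200.5 ± 8.09 TPM, *SNU13* had 158 ± 2.15 TPM and *NOP58* had 135 ± 3.36 TPM (SD, n = 3). Their sum was 811, 824 and 847 TPM in replicates 1, 2 and 3. The log2 ratio of the H/ACA sum to the box C/D sum was -0.18 ± 0.02 (SD, n = 3), and the H/ACA sum was the lower in 3 of 3 libraries. By an exact sign-flip permutation test (two-sided), p was 0.25, which is the minimum with 3 libraries. The difference was larger than its spread between libraries, but this test cannot pass a threshold of 0.05 with 3 libraries.

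The small RNAs inside *DKC1* were hardly seen in these libraries. SNORA36A was listed at 0 in all 3, and SNORA56 did not exceed 0.000269 TPM in any. The deposited row of *DKC1* covers 154762742 to 154777689 of chromosome X (plus strand), and its canonical GENCODE v44 transcript has 15 exons. *NHP2*, at 178149463 to 178153960 on the minus strand of chromosome 5, shared 1106 bp of its 3′ end with *RMND5B* on the plus strand, of which 376 bp were in canonical exons of *NHP2*. *RMND5B* had 27.0 ± 2.26 TPM (SD, n = 3). The strand setting of the quantification is not given in the sources used here, so reads in the shared part could have counted for either gene.

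The 4 shelterin members spanned a narrow range, from 9.90 to 22.8 TPM by their means. *ACD* had 22.0, 24.0 and 22.5 TPM in replicates 1, 2 and 3, or 22.8 ± 1.05 TPM (SD, n = 3). *TERF1* had 23.1, 23.2 and 19.8 TPM, or 22.0 ± 1.93 TPM (SD, n = 3), with replicate 3 the lowest. *TERF2*, whose product holds the chromosome end in a protected loop, had 13.5, 13.7 and 12.3 TPM, or 13.2 ± 0.774 TPM (SD, n = 3). *POT1* had 10.1, 9.33 and 10.3 TPM, or 9.90 ± 0.512 TPM (SD, n = 3). The paralogs *TERF1* and *TERF2* both fell lowest in replicate 3, while *POT1* was highest there.

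Within each library *TERF1* was above *TERF2*, by 1.67 ± 0.0517 times (SD, n = 3). *ACD* was above its partner *POT1* in each library, by 2.31 ± 0.226 times (SD, n = 3). The remaining shelterin genes were not members and were read as context. *TINF2*, the hub that joins the double-strand binders to *ACD*, had 18.6 ± 0.647 TPM, and *TERF2IP*, which encodes the TERF2-bound protein RAP1, had 43.3 ± 2.54 TPM (SD, n = 3), more than any of the 4 members. The H/ACA sum was 10.6, 10.5 and 11.4 times the sum of the 4 shelterin members in replicates 1, 2 and 3.

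*POT1* spans 107598 bp on chromosome 7 and *ACD* spans 3321 bp on chromosome 16. *POT1* shared 111 bp with *POT1-AS1*, which had 0.199 ± 0.0731 TPM, and none of these bases were in exons of the canonical transcript. *ACD* shared 58 bp at its 3′ end with *CARMIL2*, which had 0.495 ± 0.0691 TPM (SD, n = 3). Both neighbours were under 1 TPM in each library. No row was named as a numbered pseudogene of any of the 10 members.

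The 10 genes were then ordered by mean TPM, and each was compared with the next lower one within each library on the log2(TPM + 1) scale, which gave 9 pairs. The order came from the same 3 libraries, so the direction of each mean difference was largely set beforehand. The counts and p-values below thus describe agreement between libraries and are no separate support for the order. In 7 of the 9 the higher gene was higher in 3 of 3 libraries. The exceptions were *NOP10* and *DKC1*, with a log2 ratio of 0.04 ± 0.07, and *ACD* and *TERF1*, with 0.05 ± 0.12 (SD, n = 3), which each changed order in 1 library and so did not differ beyond their spread. The step between *GAR1* and *ACD*, where the H/ACA members end and the shelterin members begin, was 1.90 ± 0.09, the largest on this scale. It holds for the members only, since the shelterin gene *TERF2IP*, not a member, lay between them at 43.3 TPM. The step from *TERT* to *TERC* was 1.37 ± 0.38. It exceeded the step from *GAR1* to *ACD* with a pseudocount of 0.1 (2.02 against 1.94) and by coverage (1.93 against 1.73). This step sets an mRNA against an RNA without a poly(A) tail in its mature form, so it does not compare numbers of molecules. The step from *DKC1* to *GAR1* was 1.20 ± 0.10 and that from *POT1* to *TERT* was 1.11 ± 0.11. Smaller steps were seen from *TERF1* to *TERF2* (0.70 ± 0.05), from *TERF2* to *POT1* (0.38 ± 0.14) and from *NHP2* to *NOP10* (0.16 ± 0.02). In the same exact permutation test each of these 7 pairs had p = 0.25, the smallest p possible, and 0.321 after Benjamini-Hochberg adjustment over 9 pairs. The permutation p was 0.5 for *NOP10* and *DKC1* and 0.75 for *ACD* and *TERF1*.

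By coverage, which comes from the same reads, the 10 genes had the same ranks, but the distances changed. *NOP10* had a coverage of 1311, 1308 and 1120 in replicates 1, 2 and 3, while *DKC1* had 731, 691 and 648. The log2 ratio of the pair was thus 0.85 by coverage, with *NOP10* higher in every library, against 0.04 by TPM. Each gene's ratio of coverage to FPKM was set against the highest ratio of that library. *NOP10* and *TERC*, each with 1 curated RefSeq transcript, were at 1.00 of it in every library, and *DKC1*, with 6 such transcripts, was at 0.574, 0.572 and 0.564, the lowest of the 10. *TERF1* had 18 curated transcripts and was at 0.696, 0.684 and 0.751. *TERT* had 4 and was at 0.988, 0.989 and 0.988. The ratio did not simply follow this number. *TERF2* also had 1 curated transcript but was at 0.983, 0.952 and 0.983. *GAR1*, with 2, was at 0.725, 0.724 and 0.725, and *NHP2*, with 3, was at 1.00, 0.990 and 0.985. The tables give 1 value per gene, so the transcripts behind these ratios were not analysed here, nor was the part of *TERT* RNA that encodes active enzyme.

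**Figure D3:**
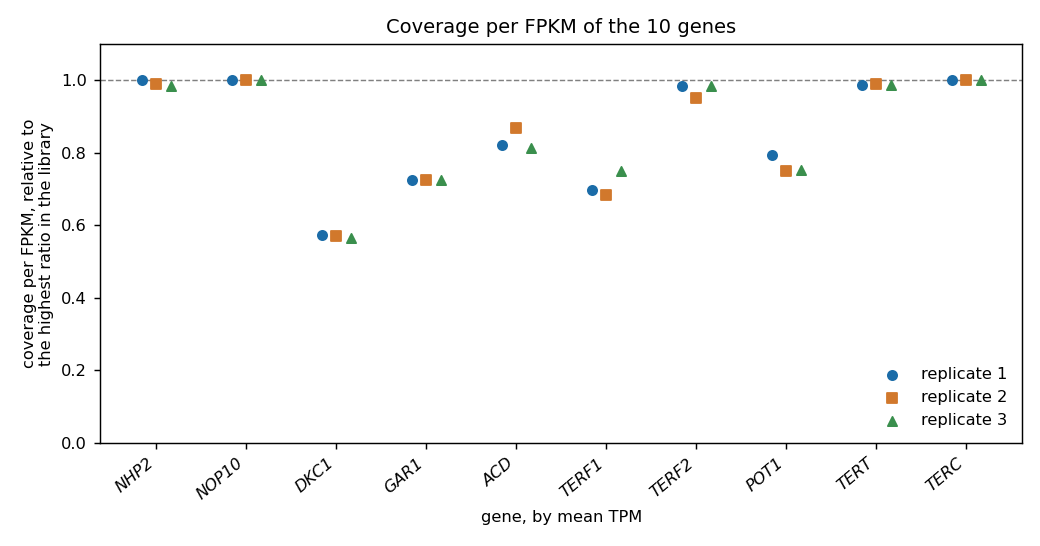
Coverage per FPKM of the 10 genes in each library, relative to the highest such ratio in that library (dashed line at 1). NOP10 and TERC lie on the line, TERT lies between 0.988 and 0.989, and DKC1 is lowest, between 0.564 and 0.574.

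The range of log2(TPM + 1) between libraries was above 1 in 0 of the 7 members that averaged 10 TPM or more, against 0.356% of all 8435 rows at that level. Members differed in how they compared with rows within 1.5-fold of their own level. The coefficient of variation of *NHP2* exceeded 7.04% of such rows, whereas that of *GAR1* exceeded 84.1% and that of *TERF1* 82.7%. The median over the 10 members was 5.53%. Over all rows that averaged 1 TPM or more, which leaves out *TERC*, it was 6.13%. Over the rows that averaged 10 TPM or more, as 7 of the members did, it was 4.88%. The median of the members thus lay below that of the wider set and above that of the narrower one. Neither set matches the members in level.

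Other genes of the pathway were read from 7 lists. Of 46 such genes found, 45 had at least 1 TPM in every library, against 30.7% of all rows. At least 10 TPM was reached by 36, against 18.8% of all rows. The median over the 46 genes was 20.5 TPM, against 15.4 TPM over all rows with a mean of at least 1 TPM. That limit was not set for the 46 genes. Only 4 of the 46 had a lower mean TPM than *TERT*: *NOPCHAP1* (listed as *C12orf45*), *STN1*, *MXD1* and *WT1*.

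Genes for the assembly of H/ACA particles ranged widely. The ATPases *RUVBL1* and *RUVBL2* had 182 ± 1.35 and 202 ± 5.03 TPM (SD, n = 3), close to the level of *DKC1*. *NOLC1*, a chaperone of nucleolar particles, had 225 ± 8.74 TPM (SD, n = 3). *NAF1*, which holds the place of GAR1 in the immature particle, had 13.1 ± 0.587 TPM, and *SHQ1*, which chaperones newly made dyskerin, had 11.0 ± 1.20 TPM (SD, n = 3). *WRAP53*, whose product TCAB1 takes telomerase to Cajal bodies through the CAB box shown above, had 28.6 ± 1.76 TPM, and the Cajal body scaffold *COIL* had 19.7 ± 1.20 TPM (SD, n = 3).

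The telomerase RNA processing list had 7 genes, and all were at or above 10 TPM in each library. *PARN*, which trims the tail of *TERC*, had 39.9 ± 1.92 TPM, and *TENT4B*, the polymerase that adds it, had 15.7 ± 1.41 TPM (SD, n = 3). *TGS1*, which modifies the cap of *TERC*, had 20.8 ± 1.28 TPM (SD, n = 3). *TERC* itself did not exceed 1.32 TPM, but its level cannot be set against these mRNAs in libraries of polyA RNA.

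The CST complex, which ends telomerase action and fills in the other strand, was uneven. *TEN1* had 21.8 ± 1.46 TPM, *CTC1* had 6.23 ± 0.181 TPM and *STN1* had 2.53 ± 0.212 TPM (SD, n = 3). Among end-processing genes, the helicase *RTEL1* had 18.9 ± 0.510 TPM and the nuclease *DCLRE1B* had 16.2 ± 0.814 TPM (SD, n = 3). *ATRX* and *DAXX*, whose loss is common in cells that maintain telomeres without telomerase, had 20.2 ± 1.27 and 38.7 ± 1.63 TPM (SD, n = 3). *PINX1*, whose product inhibits TERT, had 20.9 ± 2.00 TPM (SD, n = 3).

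Among 9 genes for regulators of the *TERT* promoter, 8 had at least 1 TPM in every library. *MYC*, an activator, had 95.6 ± 1.07 TPM, and *MXD1*, which competes with it for the partner MAX and represses *TERT*, had 3.80 ± 0.25 TPM (SD, n = 3). *GABPA* and *GABPB1*, subunits of an ETS-type factor, had 10.1 ± 0.953 and 38.2 ± 6.89 TPM (SD, n = 3). *WT1* was at 0.475, 0.314 and 0.321 TPM in replicates 1, 2 and 3.

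Some of these genes had little coverage for their TPM. In 5 of the 46 genes, coverage per FPKM was below 0.2 of the highest ratio in replicate 1, namely *SHQ1*, *PARN*, *HMBOX1*, *MAX* and *GABPB1*. *SHQ1*, at 11.0 TPM, had a coverage of only 4.64, 3.74 and 3.33 in replicates 1, 2 and 3, whereas *TERT*, at 4.04 TPM, had 27.7, 23.2 and 20.8. By coverage, 8 of the 46 genes were below *TERT*, against 4 by TPM. These 5 genes were picked by this ratio after their values were seen.

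**Figure D4:**
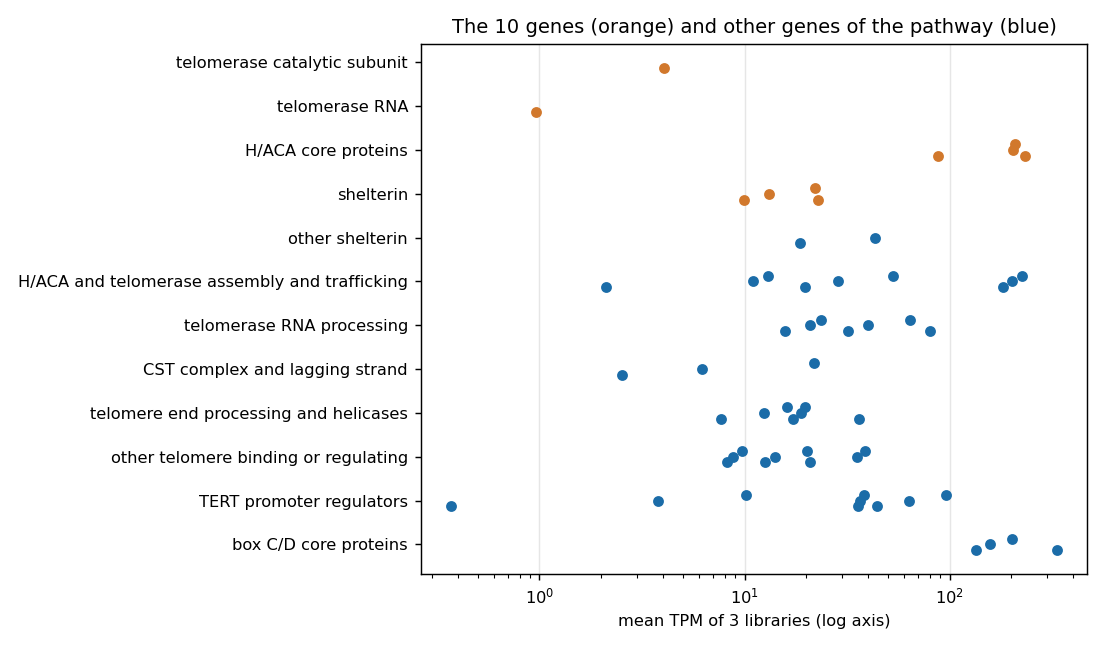
Mean TPM of 3 libraries (log axis) for the 10 members (orange) and for the other genes of each list (blue), 1 point per gene, with points shifted up or down only to avoid overlap. The H/ACA and box C/D core proteins lie to the right, from 87.9 to 335 TPM, most telomere genes lie around 20.5 TPM, and TERT and TERC lie at 4.04 and 0.966 TPM.

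The rows nearest in level over the 3 libraries, by Euclidean distance of log2(TPM + 1), were found for *DKC1* and *TERT*. For *DKC1* they were *MYL12A*, *NOP56* and *FKBP1A*, at distances of 0.0494 to 0.0553. For *TERT* they were *FAM43A*, *SEMA4C* and *ABCB9*, at 0.0362 to 0.0368. With 3 libraries of 1 condition this likeness is of level only.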

How the data were processed

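The series holds RNA-seq of 3 libraries that its labels call wild-type HepG2. The authors sequenced 150 bp paired-end reads, filtered them with FastQC 0.11.8 and Trim Galore 0.6.2 and mapped them to GRCh38 with STAR 2.6.1a, and the submitters' processing notes also name StringTie. The annotation and strand setting are not given in the sources used here. The authors deposited 1 table per library with coverage, FPKM and TPM per gene. The coverage deposited by the authors is mean depth, not scaled for library size. FPKM and TPM were scaled by the authors for length and library. No counts are given, so precision is the SD over 3 libraries.

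The 3 tables were joined by gene, strand and coordinates. Members and lists were chosen with earlier results of these data known. Members of the pathway lists, overlapping rows, pseudogene rows and the 3 rows nearest to *DKC1* and *TERT* were named, and those nearest to *TERF2* are not reported here. *NOPCHAP1* was matched by an older symbol. Ratios within a library used a pseudocount of 1 and an exact permutation test by sign flips (two-sided), with Benjamini-Hochberg adjustment over 9 pairs. The range calculation was tested on simulated data. Sequences were read from GRCh38 and checked against GENCODE v44. Alternatives were leaving out each replicate, FPKM, coverage, other pseudocounts, limits and scalings. Python 3.11.15, numpy 2.4.6, pandas 2.3.3 and matplotlib 3.10.9 were used.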

Additional observations from a re-analysis of the deposited data

How the results depend on the processing

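No conditions could be compared, paired or not, because all 3 libraries belong to 1 group. Genes were compared within each library. With mitochondrially encoded genes left out of the scaling, the means were 292 TPM for *NHP2*, 261 for *NOP10*, 254 for *DKC1*, 110.0 for *GAR1*, 28.6 for *ACD*, 27.5 for *TERF1*, 16.5 for *TERF2*, 12.4 for *POT1* and 5.06 for *TERT*, since it raises each other gene by about 1.25 times. *TERC* moved by less than its SD. When 1 replicate was dropped, *TERC* averaged between 0.787 and 1.16 TPM. The log2 ratio of *ACD* to *TERF1* turned to -0.0079 without replicate 3, and was otherwise between 0.06 and 0.11 when a replicate was dropped. The other 8 pairs stayed in the same direction with coverage and with each replicate dropped. They also did so with FPKM, a pseudocount of 0.1 and that scaling, but these cannot change the order of genes within a library. The ratio of H/ACA to box C/D proteins kept its direction with coverage and with each replicate dropped. FPKM and that scaling multiply all genes of a library alike, so this ratio could not change with them. With a limit of 0.1 or 10 TPM in place of 1 TPM, 10 or 7 members reached it in every library. Members with a range above 1 stayed at 0 under each alternative, including 10 members tested with no filter. That last setting kept the pseudocount of 1, which narrows the range at low TPM. *TERC* had a range of 0.554 there, although its TPM differed 2.27-fold between libraries. The pseudocount of 0.1 was used only on the 7 members at 10 TPM or more, so *TERC* was not tested with it. The few reads on *TERC* limit its value, and the unknown counts limit all others.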
